A study of Homo sapiens with 6 samples.

Results

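Transcripts of 10 genes were examined in HL-60 cells given amiodarone: 7 Fc receptors or receptor chains (FCER1G, FCGR1A, FCGR2A, FCGR2B, FCGR3B, FCAR and FCGRT), the adaptor TYROBP, the receptor TREM1 and the kinase SYK. They are the rows of the deposited table whose symbol is one of these names, and all 10 were found among 17911 genes. HL-60 is an established human leukaemia line, labelled as promyelocytes, and RNA sequencing was done on 6 libraries. Cells behind the 3 amiodarone libraries had received 10 uM of the drug, an antiarrhythmic agent and cationic amphiphilic compound, for 24 h, while 3 control libraries carry no further treatment label and no vehicle is named. No label says whether libraries of a group are separate cultures. The p-values below therefore reflect how much these libraries vary, and that variation may be technical.

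Fc receptors bind the constant part of antibodies and let phagocytes take up, kill or sense what the antibodies coat. Most of the activating ones signal through an ITAM, a short stretch with a pair of tyrosines that SRC family kinases phosphorylate. The phosphorylated ITAM then recruits SYK, which starts calcium, phagocytosis and cytokine signals. The ITAM lies either in a small adaptor, FCER1G (the common Fc receptor gamma chain) or TYROBP (also called DAP12), or in the receptor's own tail, as in FCGR2A. FCGR2B carries the opposite motif, an inhibitory ITIM that recruits phosphatases. Myeloid cells gain and lose these receptors as they mature.

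The upstream sequence of members is shown for both adaptors and for 2 activating Fc gamma receptors, FCGR1A and FCGR2A. All 4 were higher after amiodarone, as were FCAR and TREM1, which are not shown. Upstream windows of 250 bases were taken from RefSeq promoters (GRCh38.p14). They cover 9 members in 14 windows, since some genes have several starts. Some windows of FCGR3B overlap each other, as do some of SYK. FCAR had no entry. The lines below run 5′ to 3′ and end at the base before the RefSeq start. They lie at chr1:161215045-161215294 (plus strand), chr19:35908296-35908545 (minus strand), chr1:149782444-149782693 (plus strand) and chr1:161505207-161505456 (plus strand). Capitals mark matches, on either strand, to GAGGAA, a core bound by the myeloid factor PU.1, to TTNNGNAA, a C/EBP-type motif, and to TTCNNNGAA, the type of the interferon-gamma activation site.
FCER1G: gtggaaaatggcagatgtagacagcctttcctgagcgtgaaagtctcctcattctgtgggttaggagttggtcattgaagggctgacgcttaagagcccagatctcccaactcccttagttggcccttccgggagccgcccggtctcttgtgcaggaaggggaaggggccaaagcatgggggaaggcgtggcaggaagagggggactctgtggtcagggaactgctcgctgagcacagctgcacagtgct
TYROBP: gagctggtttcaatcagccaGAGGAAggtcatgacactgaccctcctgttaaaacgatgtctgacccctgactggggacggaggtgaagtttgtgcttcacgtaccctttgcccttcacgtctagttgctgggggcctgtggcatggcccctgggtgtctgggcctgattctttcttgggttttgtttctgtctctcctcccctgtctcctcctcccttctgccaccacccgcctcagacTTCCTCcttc
FCGR1A: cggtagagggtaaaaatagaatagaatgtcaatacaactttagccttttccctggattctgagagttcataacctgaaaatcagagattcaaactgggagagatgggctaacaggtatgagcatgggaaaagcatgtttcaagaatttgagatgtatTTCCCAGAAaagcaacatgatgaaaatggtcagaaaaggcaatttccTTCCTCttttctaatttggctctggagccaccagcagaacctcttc
FCGR2A: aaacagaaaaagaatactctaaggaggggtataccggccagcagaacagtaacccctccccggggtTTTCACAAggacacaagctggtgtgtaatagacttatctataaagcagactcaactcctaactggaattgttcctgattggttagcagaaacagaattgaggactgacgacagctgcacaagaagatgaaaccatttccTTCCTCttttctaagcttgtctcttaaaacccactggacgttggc

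GAGGAA or its reverse complement stood in the windows of TYROBP, FCGR1A, FCGR2A, FCGR2B and SYK, 6 of the 14 windows, against 23.6% of all 35116 upstream windows of this length. TTNNGNAA stood in 8 of the 14 and in 33.2% of all windows. Overlapping windows of FCGR3B hold the same match, TTGAGAAA, which is counted in each of them. TTCNNNGAA stood in 3 of the 14, those of FCGR1A, FCGR2B and TREM1, and in 6.57% of all windows. None of the 3 was found in the FCER1G window. The windows of FCGR1A and FCGR2A share a run of 20 bases, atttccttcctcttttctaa, which begins 52 and 51 bases before their starts and holds the reverse complement of GAGGAA. It was the longest run shared in 84 comparisons of windows of different members, where the next longest was 11 bases. These are matches of letters only.

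Values were taken as RPKM, scaled by gene length and depth, which the file headers do not state. If so, levels can be set side by side between genes, though less safely for those that share sequence with copies. In the 3 amiodarone libraries the 10 members summed to 1004, 999.2 and 1000.5, against 485, 486 and 476 in controls. FCER1G made up 57.8% to 58.2% of that sum after amiodarone and 44.9% to 47.6% in controls. In bulk RNA, more cells with a transcript and more of it per cell cannot be told apart. From high to low, the order after amiodarone was FCER1G, FCAR, TYROBP, SYK, FCGR1A, FCGR2A, FCGRT, TREM1, FCGR2B and FCGR3B. In controls TYROBP stood above FCAR and FCGR2B above TREM1, and the rest of the order was the same. Neighbours in either order did not overlap in their 3 libraries, though in controls FCGR2B (lowest 3.26) and TREM1 (highest 3.18) were close.

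**Figure D1:**
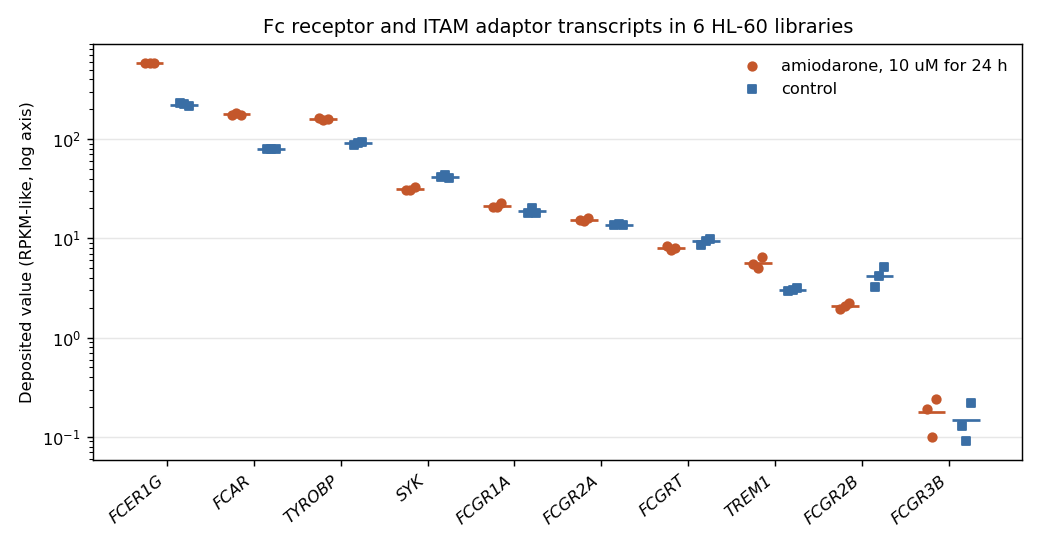
Deposited RPKM-like value (log axis) of each member in each of the 3 amiodarone libraries (circles) and 3 control libraries (squares), with group means as lines, ordered by the amiodarone mean. FCER1G, FCAR and TYROBP are the 3 highest in all 6 libraries, with FCAR the lowest of them in controls (78.5 to 79.3), and FCGR3B stays at 0.24 or less throughout.

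Of the 9 tested members, 6 rose, 3 fell and none was left uncalled (limma on log2(value + 1), adjusted p under 0.05). The background is high, as 78.3% of the 11445 tested genes were called, 33.5% as higher and 44.8% as lower. None of the 9 had overlapping groups, which was true of 79.3% of tested genes, so a call alone does not set these genes apart. A change of at least 1.5-fold on log2(value + 1), in either direction, was found in 5 of the 9 and in 21.1% of tested genes. Of the 9, 4 rose by as much, as did 9.07% of tested genes. The members were chosen with earlier results of these data known, so these shares do not test whether the members stand out. The median log2 fold change of the 9 was 0.18, beside -0.06 over all tested genes. Each of the 9 had a value above 1 in all 6 libraries, the lowest being 1.94. The tenth, FCGR3B, was not tested.

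The 2 ITAM adaptors were both higher after amiodarone. FCER1G, the chain that FCGR1A, FCAR and the high-affinity IgE receptor need for signalling and for a stable place on the cell surface, had values of 584.2, 580.02 and 578.56 in amiodarone libraries, against 230.59, 222.81 and 213.77 in controls. The groups lay far apart, and the amiodarone libraries differed by less than the controls did. The mean was 581 ± 2.93 after amiodarone and 222 ± 8.42 in controls (SD, n = 3 each), a ratio of 2.61, and the log2 fold change on log2(value + 1) was 1.38 (standard error 0.028, limma, adjusted p = 1.63e-11). Of all tested genes, 99.1% had a lower log2 fold change. FCER1G lies on chromosome 1 from 161215234 to 161220699 on the plus strand (GENCODE 29, GRCh38), with 0.964 kb of exonic sequence and no exon overlap with another annotated gene.

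TYROBP, the adaptor of TREM1 and of several NK cell and myeloid receptors, had values of 162.45, 155.81 and 160.01 in amiodarone libraries and 87.32, 90.9 and 92.61 in controls. Each amiodarone library was above each control library. The mean ratio was 1.77 and the log2 fold change 0.81 (standard error 0.029, limma, adjusted p = 1.13e-09). TYROBP lies on chromosome 19 from 35904401 to 35908295 on the minus strand. None of its 50-base stretches occurs in the transcripts of another gene.

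FCER1G was 3.60, 3.72 and 3.62 times TYROBP in amiodarone libraries and 2.64, 2.45 and 2.31 times in controls. The balance of the 2 adaptors was thus higher in all 3 amiodarone libraries, by 0.57 on the log2 scale. The two-sided exact permutation test gave p = 0.1, the smallest that 3 libraries against 3 allow, and 0.133 adjusted over the 4 ratios compared, so this difference cannot pass a threshold of 0.05 in such a design.

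Among the members that are receptors, FCAR had the largest log2 fold change. FCAR, the receptor for IgA on myeloid cells, signals through FCER1G. Its values were 174.57, 182.27 and 173.78 in amiodarone libraries and 79.25, 78.54 and 78.58 in controls, with a mean ratio of 2.24. Both groups were tight and did not overlap (log2 fold change 1.16, standard error 0.026, limma, adjusted p = 4.16e-11). The ratio of FCAR to its adaptor FCER1G was 0.304 ± 0.0085 after amiodarone and 0.355 ± 0.0121 in controls (SD, n = 3 each). It was lower in all 3 amiodarone libraries, at -0.22 on the log2 scale, with an exact permutation p of 0.1 and 0.133 adjusted over the 4. FCAR lies on chromosome 19 from 54874248 to 54890472 on the plus strand.

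TREM1, a receptor of neutrophils and monocytes that amplifies inflammatory signals through TYROBP, was low but higher after amiodarone. Its values were 5.54, 5.02 and 6.44 in amiodarone libraries and 2.93, 2.99 and 3.18 in controls, a mean ratio of 1.87. Amiodarone replicate 3 was the highest, and the groups did not overlap (log2 fold change 0.72, standard error 0.077, limma, adjusted p = 6.35e-06). At the estimated depth these values stand for about 363 to 463 reads against 232 to 253. The ratio of TREM1 to TYROBP was 0.0355 ± 0.0042 after amiodarone and 0.0336 ± 0.00072 in controls (SD, n = 3 each), with overlapping groups and an exact permutation p of 0.8. Its log2 difference of 0.07 became -0.0191 without amiodarone replicate 3, and -0.0938 with a pseudocount of 1 added to both values. TREM1 lies on chromosome 6 from 41267926 to 41286719 on the minus strand.

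**Figure D2:**
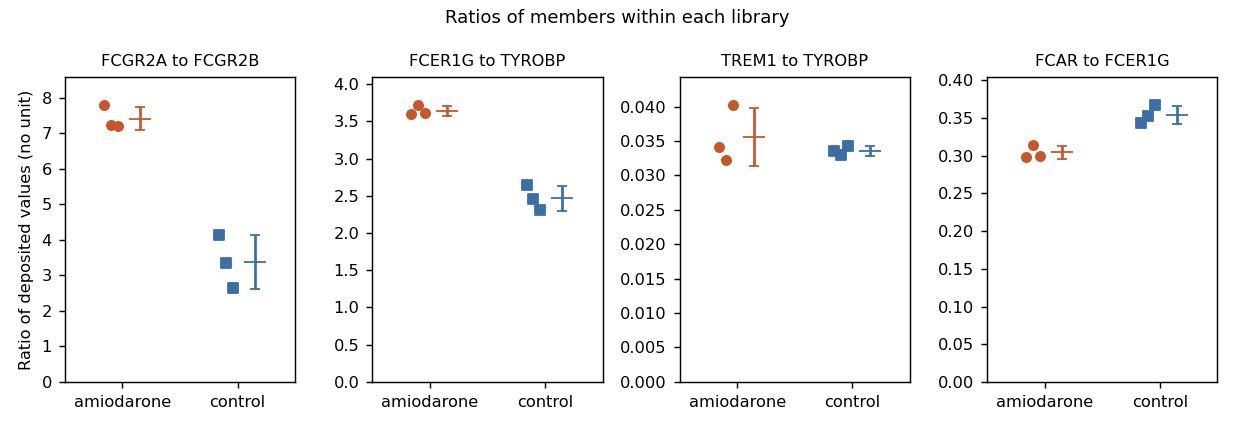
Ratio of the deposited values of 2 members within each library (no unit), for 3 amiodarone libraries (circles) and 3 control libraries (squares), with mean and SD beside them, in 4 panels that start at 0. FCGR2A to FCGR2B and FCER1G to TYROBP are higher in every amiodarone library, FCAR to FCER1G is lower in every one, and TREM1 to TYROBP overlaps between the groups.

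The activating Fc gamma receptors rose by little. FCGR1A, the high-affinity IgG receptor, also signals through FCER1G. It had values of 20.85, 20.55 and 22.5 in amiodarone libraries and 18.04, 20.32 and 17.86 in controls. Control replicate 2 (20.32) was just below amiodarone replicate 2 (20.55), and the log2 fold change was 0.18 (standard error 0.054, limma, adjusted p = 0.0105). With libraries scaled to equal sums it was 0.09 and no longer called (adjusted p = 0.136). Near-identical copies add to this uncertainty: 55.4% of the 50-base stretches of FCGR1A transcripts also occur in transcripts of other genes, 49.6% in those of FCGR1B. The copy FCGR1B, listed apart, had 7.3 ± 0.507 after amiodarone and 6.23 ± 0.411 in controls (SD, n = 3 each). Its call (limma, adjusted p = 0.0129) ended with equal sums (0.0967), without control replicate 3 (0.0570) and without amiodarone replicate 1 (0.0517). An annotated antisense gene also lies opposite 18.7% of the exonic bases of FCGR1A, which spans 149782671 to 149792518 on chromosome 1 (plus strand).

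FCGR2A, a low-affinity IgG receptor with an ITAM in its own tail, had values of 15.14, 14.93 and 15.99 in amiodarone libraries and 13.53, 13.81 and 13.65 in controls. The groups did not overlap, with a mean ratio of 1.12 and a log2 fold change of 0.16 (standard error 0.040, limma, adjusted p = 0.00418). Scaling to equal sums left 0.07 and ended the call (adjusted p = 0.137). FCGR2A lies on chromosome 1 from 161505430 to 161524013 on the plus strand. Some 14.9% of its 50-base stretches are shared with FCGR2C, a symbol not found among the deposited genes.

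FCGR2B, the inhibitory IgG receptor, went the other way. It had values of 1.94, 2.06 and 2.22 in amiodarone libraries, against 3.26, 4.14 and 5.17 in controls. All amiodarone libraries were lower, but the controls were spread out, with a coefficient of variation of 22.8% where counting alone would give about 4.42% at the estimated depth. In the amiodarone libraries it was 6.78%, with about 6.61% from counting. The mean ratio was 0.495, and the value fell by 0.74 on the log2 scale (standard error 0.112, limma, adjusted p = 1.05e-04). Some 12.1% of its 50-base stretches are shared with FCGR2C and 2.65% with FCGR2A. FCGR2B lies on chromosome 1 from 161663147 to 161678654 on the plus strand, in the same cluster as FCGR2A and FCGR3B.

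FCGR2A was 7.80, 7.25 and 7.20 times FCGR2B in amiodarone libraries and 4.15, 3.34 and 2.64 times in controls. The ratio of the activating to the inhibitory receptor was higher in all 3 amiodarone libraries, by 1.16 on the log2 scale, with an exact permutation p of 0.1, the smallest possible, and 0.133 adjusted over the 4. Leaving out single libraries gave 0.99 to 1.32. FCGR2C shares sequence with both, and how shared reads were counted is not stated.

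FCGR3B, an IgG receptor anchored in the membrane by a lipid and typical of mature human neutrophils, was barely detected. Its values were 0.19, 0.10 and 0.24 in amiodarone libraries and 0.13, 0.09 and 0.22 in controls, about 5 to 12 reads each. The groups overlapped. When all genes were fitted, unfiltered, the log2 fold change was 0.04 (limma, adjusted p = 0.614). Its close copy FCGR3A, with which it shares 26% of its 50-base stretches, was as low, at 0.253 ± 0.0635 after amiodarone and 0.167 ± 0.0603 in controls (SD, n = 3 each). No difference was detectable at this depth. FCGR3B spans 161623196 to 161631963 on chromosome 1 (minus strand).

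FCGRT and SYK were lower after amiodarone. FCGRT encodes the heavy chain of the neonatal Fc receptor, which resembles MHC class I and carries IgG out of the endosome back to the surface. It had values of 8.45, 7.68 and 7.94 in amiodarone libraries and 8.61, 9.5 and 9.82 in controls. Amiodarone replicate 1 came close to control replicate 1 but stayed below it, and the value fell by 0.19 on the log2 scale (standard error 0.057, limma, adjusted p = 0.00978). FCGRT lies on chromosome 19 from 49506816 to 49526333 on the plus strand. Its light chain, B2M, rose to 2554 ± 68.6 after amiodarone, against 1932 ± 21.2 in controls (SD, n = 3 each, limma, adjusted p = 4.49e-08).

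SYK, the kinase that all these ITAM receptors share, had values of 30.71, 30.75 and 32.78 in amiodarone libraries and 41.01, 43.2 and 40.78 in controls. The groups were well apart, with a mean ratio of 0.754, and the value fell by 0.40 on the log2 scale (standard error 0.037, limma, adjusted p = 2.27e-06). SYK lies on chromosome 9 from 90801787 to 90898549 on the plus strand. The libraries with higher FCER1G, TYROBP, FCAR and TREM1 were thus those with lower SYK.

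**Figure D3:**
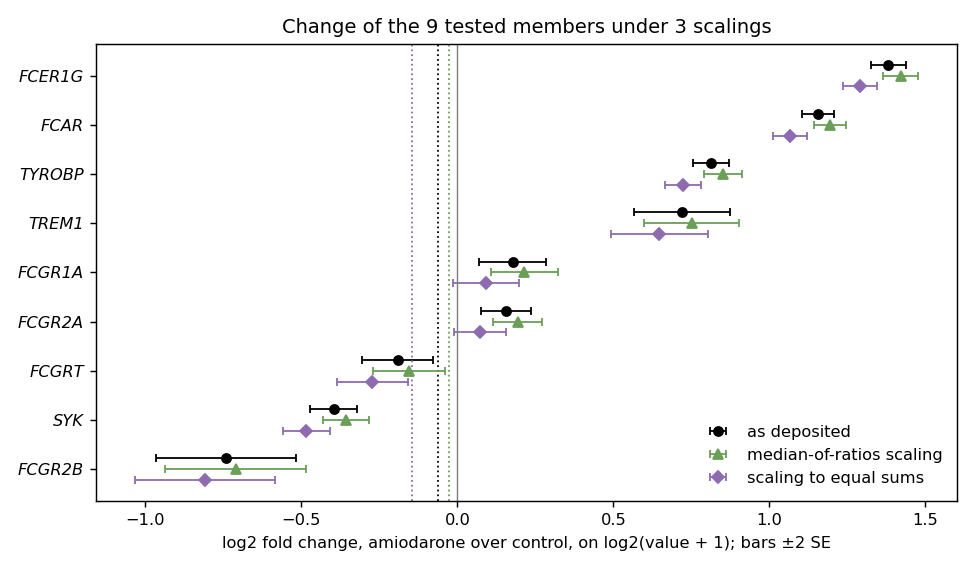
Log2 fold change of the 9 tested members, amiodarone over control, on log2(value + 1), with bars of 2 standard errors to either side, for values as deposited, after median-of-ratios scaling and after scaling to equal sums. Dotted lines show the median of all tested genes under each scaling (-0.06, -0.03 and -0.14), and the signs of all 9 members are the same under the 3.

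Other genes of the pathway were taken from 7 lists, of which each is given with all its calls. Beside these counts stands the share over all tested genes, 33.5% called higher and 44.8% called lower. The lists, too, were chosen with earlier results of these data known. The table holds 18 further Fc receptor genes. The filter on low values left 5, and 3 rose, 1 fell and 1 was not called (4 higher and 0 lower with median-of-ratios scaling, 2 and 1 with equal sums). The other 13 had a mean under 1. FCER2, the low-affinity IgE receptor, rose to 5.52 ± 0.684 after amiodarone, against 1.81 ± 0.526 in controls (SD, n = 3 each, limma, adjusted p = 3.22e-06). TRIM21, a cytosolic antibody receptor and ubiquitin ligase, fell to 29.3 ± 0.96, against 31.4 ± 0.544 in controls (limma, adjusted p = 0.0212). The TRIM21 call ended with median-of-ratios scaling (0.138), without amiodarone replicate 3 (0.0800) and without control replicate 2 (0.0784).

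Of 7 other adaptors or signalling chains 5 were tested, with 3 higher, 1 lower and 1 not called. With equal sums 1 was higher and 1 lower, and the median log2 fold change of 0.09 became -0.0038. HCST (DAP10), which signals through PI3-kinase and has no ITAM, had 111 ± 4.77 after amiodarone and 105 ± 3.79 in controls (SD, n = 3 each, limma, adjusted p = 0.0476). The HCST call ended in 7 alternatives, among them without amiodarone replicate 3 (0.189), without control replicate 1 (0.0673), without control replicate 3 (0.192) and with equal sums (0.928, with the sign turned). The B cell receptor chain CD79A fell to 9.26 ± 0.384, against 11 ± 0.427 in controls. Its partner CD79B rose to 12.9 ± 0.868, against 11.2 ± 0.122, but the call ended with equal sums (0.0855). CD3G of the T cell receptor had 2.33 ± 0.261 after amiodarone and 0.72 ± 0.177 in controls, and reached the filter through its amiodarone libraries alone.

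Receptors that pair with FCER1G or TYROBP, or that carry a hemITAM (a motif with a single tyrosine), were mostly higher. Of 25 genes 13 were tested: 10 rose and 3 fell, and the median log2 fold change was 0.50. CLEC7A (Dectin-1), a hemITAM receptor for fungal beta-glucan, rose to 35.5 ± 1.02 after amiodarone, against 7.16 ± 0.402 in controls (SD, n = 3 each, limma, adjusted p = 2.29e-11). The activating leukocyte receptors LILRA5 and LILRA2, which pair with FCER1G, rose as well. LILRA5 had 5.85 ± 0.229 after amiodarone and 1.35 ± 0.085 in controls. LILRA2 had 129 ± 2.12 and 87.9 ± 1.13. NCR2, a TYROBP-linked receptor of NK cells, had 2.15 ± 0.0666 after amiodarone and 0.173 ± 0.0462 in controls. NCR2 and CLEC4E, the last named after its values were seen, were under 1 in control libraries, so they were tested only because the amiodarone libraries were high. SIRPB1, which pairs with TYROBP, fell to 84.5 ± 2.57, against 93.9 ± 0.843 in controls (limma, adjusted p = 5.11e-04).

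Inhibitory receptors with an ITIM were more often higher than lower. Of 21 genes 19 were tested, and 10 rose, 2 fell and 7 were not called (median log2 fold change 0.21). With median-of-ratios scaling 13 were higher and 1 lower, and with equal sums 8 and 2. Of all tested genes 78.3% were called, 33.5% as higher and 44.8% as lower. PILRA, an inhibitory paired receptor, rose to 68.6 ± 3.15 after amiodarone, against 36.4 ± 0.592 in controls (SD, n = 3 each, limma, adjusted p = 2.70e-09). CD300LF, a lipid-binding receptor of myeloid cells, rose to 70.2 ± 1.15, against 35.3 ± 2.42. LILRB3 rose to 3.05 ± 0.284, against 1.13 ± 0.0252 in controls. LAIR1, a collagen receptor, rose to 66.7 ± 0.58, against 58 ± 1.51. CD22, a sialic acid receptor known from B cells, had 4.05 ± 0.327 after amiodarone and 0.57 ± 0.0872 in controls. All 3 control libraries of CD22 were under 1, so it was tested only because its amiodarone libraries were high, and it counts among the 10 that rose. It is one of 4 tested genes of this list with a control library under 1. CD33, a sialic acid receptor of myeloid cells, had 95.5 ± 3.55 after amiodarone and 91.7 ± 2.12 in controls and was not called (limma, adjusted p = 0.115). It was called with median-of-ratios scaling (0.0215) and without amiodarone replicate 2 (0.0358). With equal sums the log2 fold change of CD33 turned from 0.06 to -0.03 and was not called.

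The SRC family kinases that phosphorylate ITAMs included several that were higher. Of 10 kinase genes in the table, with TEC family members and ZAP70 counted in, 8 were tested: 5 rose, 1 fell and 2 missed the threshold, and their median log2 fold change was 0.70. One of the 5, SRC, named after its values were seen, was under 1 in all 3 control libraries and was tested only because its amiodarone libraries were higher, so it had to differ, and it is one of the 2 values that set this median. FGR, a kinase of myeloid cells, rose to 33.1 ± 0.503 after amiodarone, against 13.2 ± 0.568 in controls (SD, n = 3 each, limma, adjusted p = 3.55e-10). LYN rose to 39.2 ± 0.607, against 20.4 ± 0.621. YES1, a broadly expressed relative, rose to 7.56 ± 0.532, against 4.37 ± 0.175 in controls. BTK, a TEC family kinase that acts after SYK, fell to 39.7 ± 1.21, against 45.7 ± 1.1 in controls (limma, adjusted p = 2.35e-04).

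Signalling adaptors and effectors after SYK moved in both directions. All 30 were tested: 17 rose, 9 fell and 4 were not called, and the median log2 fold change was 0.12 (0.03 with equal sums). The linker LAT rose to 36.1 ± 1.94 after amiodarone, against 15.2 ± 0.901 in controls (SD, n = 3 each, limma, adjusted p = 3.70e-09). Its relative LAT2, a linker of myeloid and B cells, rose to 218 ± 0.665, against 164 ± 1.93. The docking protein GAB2 rose to 16.9 ± 0.307, against 7.48 ± 0.25 in controls. The phospholipase PLCG2 rose to 24 ± 1.01, against 11.8 ± 0.258. Both act between SYK and its calcium and kinase signals. PIK3R5, a regulatory subunit of a PI3-kinase, rose to 15.6 ± 0.506, against 7.86 ± 0.0929 in controls. RAC2, a small GTPase of blood cells that acts in phagocytosis, rose to 542 ± 16.1, against 481 ± 12. PLCG1, chosen after its values were seen, was the one gene of the 30 that fell by at least 1.5-fold on log2(value + 1), to 4.07 ± 0.286, against 8.94 ± 0.447 in controls.

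Brakes of this signalling were mixed too. Of 20 tested genes 11 rose, 6 fell and 3 missed the threshold, and their median log2 fold change was 0.24 (13 higher and 4 lower with median-of-ratios scaling). PAG1, a membrane anchor for the kinase that holds SRC kinases in check, rose to 8.07 ± 0.242 after amiodarone, against 2.93 ± 0.255 in controls (SD, n = 3 each, limma, adjusted p = 1.44e-08). The phosphatase PTPN12 rose to 47.4 ± 0.146, against 24 ± 0.556. PTPN22 rose to 40.4 ± 1.95, against 22.3 ± 0.386 in controls. PTPN6 (SHP-1), which ITIMs recruit, rose to 231 ± 4.57, against 189 ± 1.46. PTPRC (CD45), known to activate SRC kinases as well as to restrain them, rose to 77.1 ± 2.6, against 35.2 ± 1.99 in controls. INPP5D (SHIP1), the lipid phosphatase that FCGR2B recruits, was chosen after its values were seen. It had 82.7 ± 0.951 after amiodarone and 86.5 ± 0.347 in controls, and was called lower (limma, adjusted p = 0.0353). Its log2 fold change of -0.063 was close to the median of all tested genes (-0.061), so it did not stand apart from them. DOK3, an inhibitory adaptor, had 116 ± 7.67 after amiodarone and 112 ± 1.78 in controls and was not called (limma, adjusted p = 0.272). It was called without amiodarone replicate 3 (0.0248), while with equal sums its log2 fold change turned from 0.05 to -0.04.

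**Figure D4:**
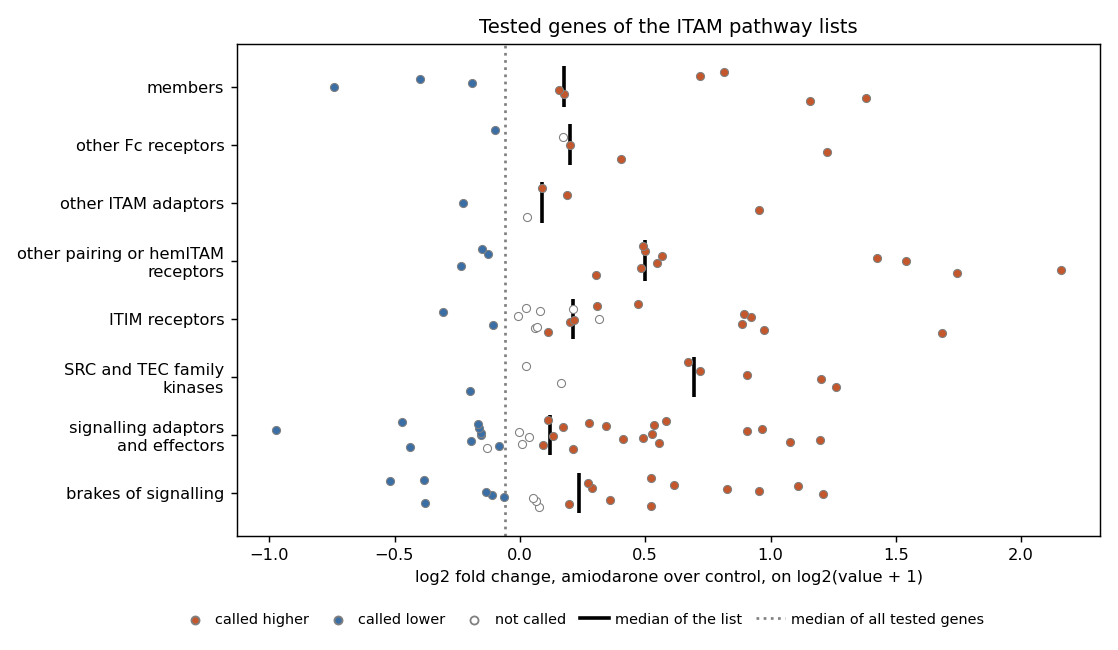
Log2 fold change, amiodarone over control, on log2(value + 1), of each tested gene of the members and of 7 further lists, coloured by call, with the median of each list (black line) and of all tested genes (dotted line, -0.06). List medians run from 0.09 (other adaptors) to 0.70 (kinases, a median set in part by SRC, which was tested only through its amiodarone libraries).

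Markers of other cells and stages moved beside these genes, and their part in the results was not tested. All 7 promyelocyte markers fell, and their summed level was 3112 to 3171 after amiodarone and 7135 to 7238 in controls. MPO, the granule peroxidase of this stage, had 2613 ± 28.4 after amiodarone and 5962 ± 43.7 in controls (SD, n = 3 each). Of 8 monocyte or macrophage markers 2 were tested and both rose. The other 6 had a mean under 1 and were not tested. Of these, named after their values were seen, CSF1R, a growth factor receptor of macrophages, had 0.557 ± 0.0551 after amiodarone and 1.09 ± 0.165 in controls. CD14, the lipopolysaccharide co-receptor of monocytes, had 0.793 ± 0.164 after amiodarone and 0.347 ± 0.0907 in controls. The groups did not overlap in either gene, and CSF1R was the lower and CD14 the higher after amiodarone. Of 8 mature neutrophil markers 4 were tested, 2 lower, 1 not called and 1 higher. The higher one, CEACAM8, named after its values were seen, was under 1 in all 3 control libraries and was tested only because its amiodarone libraries were high. The sums were 64.8 to 66.7 after amiodarone and 81.2 to 81.6 in controls, mostly from CSF3R (57.6 ± 0.874 and 74.4 ± 0.616). Of 5 mast cell or basophil markers 3 were tested and 2 rose, with sums of 61.3 to 76.6 after amiodarone and 36.5 to 39.3 in controls, mostly from TPSAB1 (63.5 ± 7.73 and 32.7 ± 1.34). FCER1A, the IgE-binding chain that defines these cells, was named after its values were seen. It was listed at 0 in all 3 amiodarone libraries and averaged 0.017 in controls.

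Both tested NK cell markers of 4 rose, and the sums were 176 to 185 after amiodarone and 127 to 132 in controls, mostly from NKG7. T cell markers, of which 1 rose among 2 tested (CD3G, described above), summed to 5.12 to 5.26 and 2.7 to 3.8, and B cell markers, 1 higher and 1 lower, to 21.8 to 23.2 and 22.7 to 23.2. Dendritic cell markers summed to 1.78 to 2.52 after amiodarone and 1.67 to 1.91 in controls. The 1 tested, FLT3, fell, but its call ended without amiodarone replicate 2 (limma, adjusted p = 0.0559). Megakaryocyte or platelet markers summed to 1.41 to 2.15 and 2.03 to 2.44, and the 1 tested, ITGA2B, fell. Erythroid markers were near 0, at 0 to 0.05 after amiodarone and 0.03 to 0.06 in controls. None of the markers in the table was at 0 in all 6 libraries.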

How the data were processed

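HL-60 RNA was made into stranded mRNA libraries, per the labels' protocols. Tools named by the submitters' processing notes are STAR 2.5.3a, fastp 0.23.4 and featureCounts, and the build is GRCh38.p12; no role or order is given. Use of strand in counting and treatment of shared reads: not given in the sources used here. Per the file headers the values are only called expression. They were taken as RPKM made by the authors, since they are not whole and sum to 534486 to 574483. Steps between low values of short genes put the depth at 16500000 to 16700000 reads after amiodarone and 18300000 to 18400000 in controls. Only 51.0% to 57.3% of these values lay within 0.15 of a whole step, where 30% would by chance with a step fixed in advance, so whole reads could not be recovered and read numbers and counting errors are estimates.

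Groups follow the treatment label. Values were used as deposited, and 26 symbols turned into dates were restored by Entrez ID. A gene was tested if 3 or more libraries reached a value of 1, which kept 11445 of 17911 genes and left out 6466. Tests used limma 3.58.1 under R 4.3.3 (eBayes with trend) on log2(value + 1), which understates changes of low genes, and Benjamini-Hochberg adjustment over all of them. Ratios of members were compared in 4 pairs with exact permutation tests. No pair of libraries shared more than 0.751% of values, so none was a duplicate. Coordinates, exon overlaps and shared 50-base stretches come from GENCODE 29 (GRCh38), and upstream sequences from RefSeq. From each list the text names the 4 genes with the smallest adjusted p and the 2 of highest mean, plus the paralogs FCGR1B and FCGR3A and the top gene of each marker list, and says where it names others; some genes that this rule would name are not reported here. The members and lists were chosen with earlier results of these data known. Alternatives were 2 scalings, 3 changes of filter or pseudocount, a replicate block, no trend and leaving out each library. The procedure was tested on simulated data in which few genes changed. That does not show how it behaves where most tested genes are called, as here.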

Additional observations from a re-analysis of the deposited data

How the results depend on the processing

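The 9 tested members kept their direction under all 13 alternatives they could be tested in, and their calls too, except that FCGR1A and FCGR2A lost theirs with scaling to equal sums, which leaves 4 higher and 3 lower. FCGR2B fell under the filter at a minimum value of 5. Changes of filter, the replicate block and leaving out the trend cannot alter a fold change here, so direction was open only in the others. Leaving out single libraries gave 9 called members throughout and 8346 to 8487 called genes. Fold changes then ranged from 1.35 to 1.41 for FCER1G, 1.13 to 1.17 for FCAR, 0.79 to 0.83 for TYROBP, 0.64 to 0.79 for TREM1, 0.14 to 0.23 for FCGR1A, 0.13 to 0.18 for FCGR2A, -0.24 to -0.16 for FCGRT, -0.43 to -0.37 for SYK and -0.87 to -0.61 for FCGR2B, all in log2. The ratio of TREM1 to TYROBP changed sign with a pseudocount of 1 added to both (-0.0938) and ranged from -0.0191 to 0.141 without single libraries; the cause was not tested. Called genes of the other Fc receptors numbered 4, and 9 without a filter, which tests more genes. Those of the other ITAM adaptors numbered 4, then 2 with scaling to equal sums and 2 to 4 without single libraries, and those of the pairing receptors 13, then 8 at a minimum value of 5, which tests fewer.

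The libraries share replicate numbers, but same-numbered ones did not deviate together (correlations of -0.155, -0.0182 and -0.0231). No pairing was seen, but so few libraries cannot exclude it. With a replicate block 9 members were called, and 3748 genes were higher and 5022 lower, against 3832 and 5127 without it. A block cannot alter mean log2 differences in this balanced design, so the ratios of members were not checked by it. Low read numbers limit FCGR3B, and shared sequence limits FCGR1A, FCGR2A, FCGR2B and FCGR3B.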
